A study of Mus musculus with 17 samples.

Results

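Collagens are triple-helical proteins of the extracellular matrix, each built from 3 chains that are encoded by separate or shared genes. The genes described here are the 43 mouse genes whose symbol has the form Col, a number, a and a number, out of 23891 gene symbols in the deposited tables. Col1a1 was left out, because the software that made the tables gave it no estimate in the mouse embryonic fibroblast sample. Each gene is represented by its RefSeq transcript with the highest mean level over all 17 samples, and levels are in FPKM, fragments per kilobase of transcript scaled to the size of the library, which is a level per length and so can be compared between genes.

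Fibrillar collagens (types I, II, III, V and XI) form the banded fibres of connective tissue, and fibroblasts are their classical source. Type IV forms the sheet of basement membranes together with laminins, nidogens and perlecan. Type VI forms beaded filaments, FACIT collagens sit on the surface of fibrils, multiplexins such as type XVIII carry glycosaminoglycan chains in basement membranes, and transmembrane collagens such as types XIII and XVII anchor cells to the matrix.

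RNA was sequenced from 4 lines of spermatogonial stem and progenitor cells (SSC), 6 lines of multipotent adult spermatogonial-derived stem cells (MASC), which arise from SSC in culture, 2 embryonic stem cell (ESC) lines, 2 induced pluripotent stem (iPS) cell lines, 2 cultures of haematopoietic stem and progenitor cells (HSC) and 1 sample of mouse embryonic fibroblasts (MEF). The SSC lines carried the backgrounds Oct4-GFP (SSC.1 and SSC.2), C57Bl/6J (SSC.3) and 129mix (SSC.4). The MASC lines were Oct4-GFP (MASC.1 and MASC.2), 129mix (MASC.3 and MASC.4) and Gt(ROSA26)Sor-lacZ (MASC.5 and MASC.6), ESC.1 was Oct4-GFP, ESC.2, both iPS lines and the MEF sample were 129mix, and both HSC cultures were C57Bl/6J. The iPS lines were reprogrammed by doxycycline from E13.5 fibroblasts that carry tetO-4F2A, a cassette with the reprogramming factors, and H3.3B-HA, a tagged histone allele, and the MEF sample was from H3.3B-HA embryos of the same age. SSC, MASC, ESC and iPS cells were all grown on MEF feeder cells. For SSC the study's methods name a commercial MEF preparation, which is not the MEF sample from H3.3B-HA embryos. The source of the other feeders is not stated there. Levels given as a percent of MEF refer to the MEF sample, which may differ from the feeders. Before collection, SSC were depleted of feeders by plating on gelatin, and they were kept in their own growth-factor medium, whereas the other lines were in serum-replacement medium with leukaemia inhibitory factor. Medium and feeder removal therefore cannot be told apart from the difference between SSC and the other lines. HSC were lineage-depleted mouse marrow cells expanded on E4ORF1-HUVECs, human endothelial feeder cells. The lines were the replicates, no source states that they came from separate animals, and the p-values measure only the spread between lines.

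Depth was similar among samples, with a Cufflinks coverage between 1.26 and 3.23 reads per base at 1 FPKM and between 13532 and 16272 transcripts of at least 1 FPKM in a sample. The labelled identities were visible in their markers. The 6 pluripotency markers (Pou5f1, Nanog, Zfp42, Tdgf1, Dppa5a and Esrrb) summed to between 2665 and 5950 FPKM in MASC, ESC and iPS lines and to at most 154 FPKM in any SSC line, and the 7 SSC markers summed to at least 482 FPKM in SSC and at most 161 FPKM in MASC. In the limma comparison described below, 6 of the 7 SSC markers were called lower in MASC than in SSC and 1 higher. The shares of all transcripts were 9.6% lower and 6.04% higher. The MEF sample held 46.1 FPKM of Spi1 and 3.32 FPKM of Ptprc, genes of blood cells. The 2 HSC cultures stood apart from each other: Dcn, which encodes the fibroblast proteoglycan decorin, was close to 0 in HSC.1 and at 103 FPKM in HSC.2, against 109 FPKM in MEF. Other fibroblast markers in HSC.2 were further below MEF. Over the 12 markers used below, HSC.2 was at 1.61% to 94.9% of MEF with a median of 10.5%, and HSC.1 at no more than 0.568%. HSC results are therefore given with each culture alone as well. In a fit with 1 HSC culture the spread comes from the other groups, and the lone culture is assumed to vary like them.

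The collagens were sorted by a description with no test, since there is 1 MEF sample. A collagen was placed with MEF where it had at least 1 FPKM in MEF and MEF was above each of the 14 SSC, MASC, ESC and iPS lines, and with the stem cell lines where at least 1 of these 4 cell types had a mean of at least 1 FPKM and every line of that type was above MEF. By this sorting 22 collagens were highest in MEF among these 15 samples, 8 were above MEF in a stem cell type, 9 were low and 4 fell in between. The HSC cultures were not part of the sorting, and among the 22 collagens Col11a2 alone was higher in an HSC culture (2.42 FPKM in HSC.2) than in MEF (1.75 FPKM). The 22 include most fibrillar chains (Col1a2, Col3a1, Col5a1, Col5a2, Col11a1, Col11a2, Col24a1 and Col27a1), the 3 common type VI chains, 4 of the 6 type IV chains, the network chains Col8a1, Col8a2 and Col10a1, the FACIT chains Col12a1, Col14a1 and Col16a1, and Col7a1 of anchoring fibrils. Above MEF in stem cell lines were Col18a1, Col2a1, Col13a1, Col9a2, Col9a3, Col22a1, Col17a1 and Col26a1. The map of levels shows both groups side by side.

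**Figure D1:**
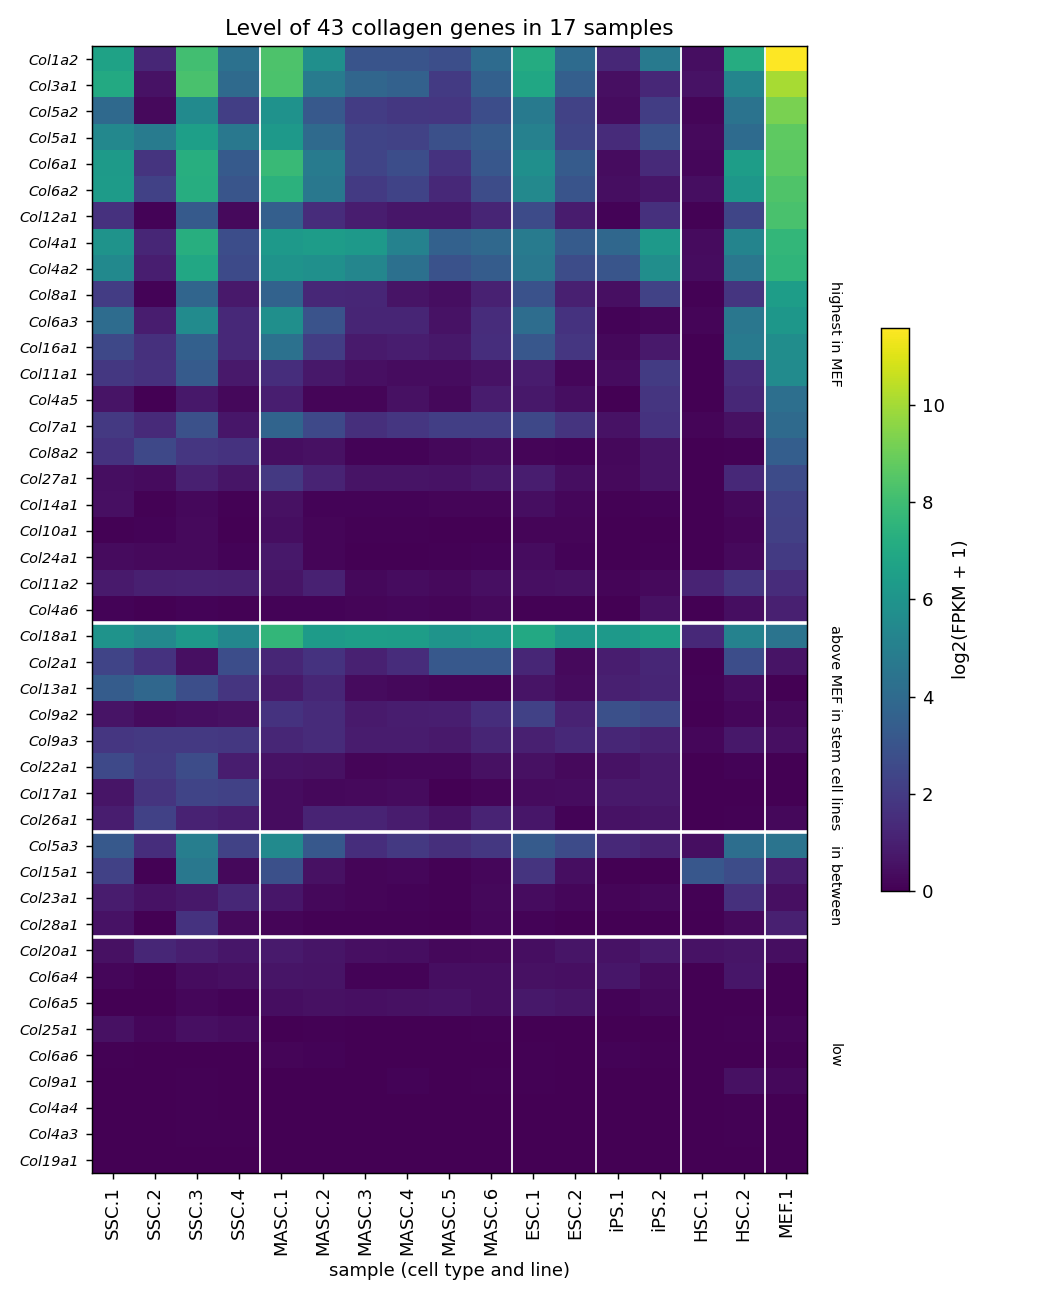
Level of each of the 43 collagen genes (rows) in the 17 samples (columns), as colour on a log2(FPKM + 1) scale; white lines separate cell types and the 4 groups of collagens. The first block is brightest in MEF, apart from Col11a2 in HSC.2, and varies from line to line within each cell type, while Col18a1 is bright in all 14 SSC, MASC, ESC and iPS lines.

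Start regions of 4 collagens are shown first, 2 of collagens highest in MEF that move together over the lines (Col1a2 and Col3a1) and 2 of collagens above MEF in all 14 lines (Col18a1 and Col13a1, of which Col13a1 was highest in SSC). Each is the 250 bases before the annotated start on the strand of the gene, from RefSeq on GRCm38.p6, and capitals mark matches on either strand to 3 short motifs, the motif TATAAA, the motif CCAAT and the motif GGGCGG, with no overlap between matches. The windows are chr6:4505368-4505617 (plus strand) for Col1a2, chr1:45311288-45311537 (plus strand) for Col3a1, chr10:77166531-77166780 (minus strand) for Col18a1 and chr10:61979109-61979358 (minus strand) for Col13a1.
Col1a2: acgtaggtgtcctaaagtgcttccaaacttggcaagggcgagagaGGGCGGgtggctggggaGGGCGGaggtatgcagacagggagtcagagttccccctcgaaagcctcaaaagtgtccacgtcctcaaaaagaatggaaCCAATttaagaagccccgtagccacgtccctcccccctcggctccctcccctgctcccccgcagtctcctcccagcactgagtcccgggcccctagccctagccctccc
Col3a1: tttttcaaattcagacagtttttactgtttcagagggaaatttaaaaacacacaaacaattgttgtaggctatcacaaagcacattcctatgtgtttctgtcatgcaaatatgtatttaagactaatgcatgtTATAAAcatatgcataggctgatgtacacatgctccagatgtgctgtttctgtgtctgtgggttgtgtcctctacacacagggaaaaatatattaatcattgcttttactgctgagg
Col18a1: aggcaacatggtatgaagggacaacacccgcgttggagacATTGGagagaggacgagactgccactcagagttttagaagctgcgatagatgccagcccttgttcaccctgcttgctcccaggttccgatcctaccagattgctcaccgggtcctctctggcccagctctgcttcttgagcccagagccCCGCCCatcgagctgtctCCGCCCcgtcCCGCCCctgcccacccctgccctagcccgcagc
Col13a1: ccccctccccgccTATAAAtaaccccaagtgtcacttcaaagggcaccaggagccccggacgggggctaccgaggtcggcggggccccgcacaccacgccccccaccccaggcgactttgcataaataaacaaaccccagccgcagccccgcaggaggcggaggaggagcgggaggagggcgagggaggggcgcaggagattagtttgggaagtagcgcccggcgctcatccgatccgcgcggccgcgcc
In the Col1a2 window, CCAAT began 109 bases before the start and 2 GGGCGG matches lay further upstream. The Col18a1 window held 3 GGGCGG matches within the last 61 bases and 1 CCAAT match, all on the opposite strand. Col3a1 had a single TATAAA 117 bases and Col13a1 a single TATAAA 237 bases before the start. Col3a1 held only 35.2% G and C, against 62.0% in Col1a2 and in Col18a1 and 68.8% in Col13a1. Of the 43 collagens, 35 had at least 1 window in the table, 38 windows in all. GGGCGG was in 57.9% of these 38 windows and in 32.7% of all 32851 windows of the same length, CCAAT in 34.2% and 33.8%, and TATAAA in 13.2% and 12.4%. Of the collagens highest in MEF, 70.0% of 20 windows held GGGCGG, and of those above MEF 40.0% of 5 windows did. These matches describe the letters of the windows, and binding was not measured here.

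The collagens highest in MEF are led by the chains of the abundant fibres. Col1a2, the second chain of type I collagen, was at 3059.6 FPKM in MEF (Cufflinks bounds 3052.4 to 3066.8). In SSC it was at 102, 1.37, 267 and 18.8 FPKM in lines 1 to 4, in MASC it ran from 5.95 over a median of 11.3 to 327 FPKM, and was at 137 and 15.6 FPKM in ESC and 1.45 and 25.1 FPKM in iPS. The highest lines of these types were SSC.3, MASC.1 and ESC.1, and the cell types overlapped. Col3a1, the chain of type III collagen, was at 1080.2 FPKM in MEF and at 132, 0.498, 309 and 15.1 FPKM in SSC.1 to SSC.4, from 2.93 over 12.1 to 312 FPKM in MASC, and at 119 and 10.5 FPKM in ESC. It was high in the same lines as Col1a2, and in iPS.2 it stayed at 1.45 FPKM where Col1a2 reached 25.1 FPKM. The ratio of Col1a2 to Col3a1 ranged from 0.525 to 17.3 over the 14 lines, with the highest value in iPS.2.

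Col5a1 and Col5a2, the chains of type V collagen that regulates fibril diameter, were at 411 and 608 FPKM in MEF. In SSC, Col5a1 was at 42.0, 27.1, 91.2 and 23.8 FPKM while Col5a2 was at 14.6, 0.209, 45.0 and 3.50 FPKM. The chains of 1 protein thus had unequal levels in SSC.2, where the ratio of Col5a1 to Col5a2 was 129, against 0.676 in MEF and a median of 1.89 over the 14 lines. The type VI chains kept close to each other. Col6a1 was at 398 FPKM and Col6a2 at 337 FPKM in MEF, and their ratio lay between 0.627 and 2.52 in all 14 lines, with Pearson's r of 0.99 and Spearman's rho of 0.99 between their log2 levels over these lines. Col6a1 ranged from 2.31 (SSC.2) to 150 FPKM (SSC.3) in SSC, from 2.20 (MASC.5) to 229 FPKM (MASC.1) in MASC, and was at 0.303 and 1.56 FPKM in the iPS lines. Col12a1, a FACIT collagen of dense connective tissue, had the widest gap of all members of the group, at 309 FPKM in MEF against at most 10.4 FPKM in a stem cell line, 29.9-fold lower. At the other end, Col7a1, Col6a3 and Col4a1 in MEF were only 1.24-, 1.32- and 1.32-fold above the highest stem cell line. With a 2-fold margin over every line 14 of the 22 collagens remained highest in MEF, and Col4a1, Col4a2, Col6a1, Col6a2, Col6a3, Col7a1, Col11a2 and Col27a1 moved to the group in between.

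These levels moved with fibroblast markers from line to line. The fibroblast list of 12 genes without collagens (among them Dcn, Lum, Postn, Mmp2, Pdgfrb and Thbs2) was read in each line as a percent of its MEF level. The median marker was at 22.0% in MASC.1, 10.9% in SSC.3, 6.86% in ESC.1 and 4.87% in SSC.1, between 0.719% and 3.32% in the other MASC lines, at 1.87% in SSC.4, 2.49% in ESC.2 and 0.459% in iPS.2, and lowest at 0.172% in SSC.2 and 0.0622% in iPS.1. The summed level of the 12 markers ran from 13.1 to 441 FPKM in SSC, from 22.4 to 515 FPKM in MASC, from 68.3 to 195 FPKM in ESC, from 12.9 to 30.0 FPKM in iPS and from 1.79 to 436 FPKM in HSC, against 3354 FPKM in MEF, and 0 of the 12 were called by limma in any comparison of all lines, with 0 unadjusted p-values under 0.05. The median of the 22 collagens was highest in the same 4 lines, at 21.1% in MASC.1, 20.1% in SSC.3, 9.79% in SSC.1 and 9.65% in ESC.1, with 1.22% in SSC.2 and 0.493% in iPS.1. Over the 14 lines, Spearman's rho between a collagen's level and the median marker percent was 0.97 for Col6a3, 0.96 for Col6a1 and Col5a2, 0.91 for Col3a1 and 0.88 for Col1a2, and the median over the 22 was 0.78. The lowest values among the 22 were -0.02 for Col4a6, 0.13 for Col8a2, 0.35 for Col11a1 and 0.49 for Col4a5. Pearson's r on the log scale was 0.93 for Col1a2 and 0.89 without the 2 lines farthest from the median, iPS.1 and MASC.1. For the 8 collagens above MEF, the median rho was 0.03 and the highest 0.29 (Col18a1). These coefficients are descriptions over lines that share feeders and culture, and in bulk RNA more cells of a type and more RNA per cell cannot be told apart. What part of the collagen levels comes from MEF feeder cells was not tested.

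**Figure D2:**
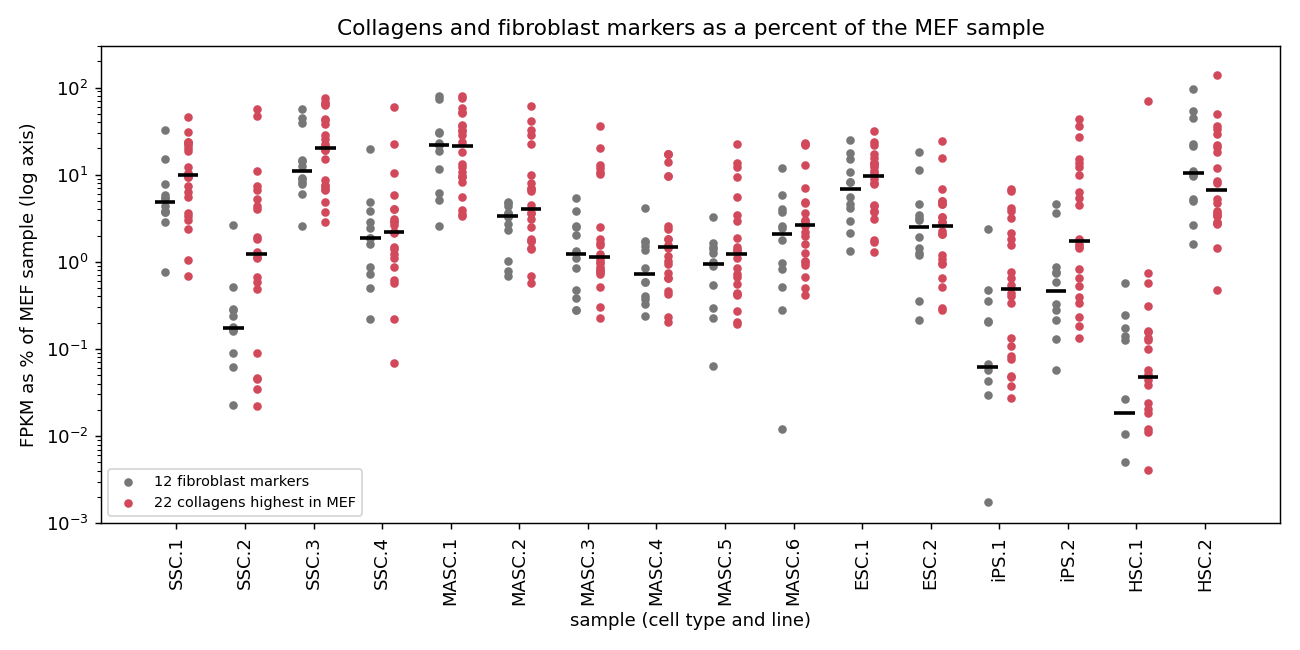
Level of each of the 12 fibroblast markers (grey) and of the 22 collagens highest in MEF (red) as a percent of its level in the MEF sample, on a log axis, in the 16 other samples; black bars are medians, and 13 points below 0.001% are not drawn. Both sets are high in MASC.1, SSC.3, ESC.1 and HSC.2 and low in iPS.1, SSC.2 and HSC.1, and some collagens lie above all markers of their line.

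Several of the 22 collagens stood above every fibroblast marker of their line. Col11a2, a minor fibrillar chain, did so in 12 of the 14 lines, at 6.53% (iPS.1) to 63.7% (SSC.3) of its low MEF level of 1.75 FPKM. Col7a1 did so in 10 lines and reached 12.2 FPKM in MASC.1 against 15.0 FPKM in MEF. Col27a1 was above all markers in 8 lines, Col4a1 and Col4a2 in 7 lines each, Col4a6 in 6 lines and Col8a2 in 3 lines. By contrast, Col1a2, Col3a1, Col5a2, Col8a1, Col10a1, Col12a1 and Col14a1 were above all markers in 0 of 14 lines.

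Type IV collagen was the most abundant of these. Col4a1 and Col4a2 encode the 2 chains of the common type IV molecule and are read in opposite directions from a shared start region on chromosome 8. In RefSeq on GRCm38.p6 the 2 transcripts begin 22 bases within each other, at chr8:11312805-11312826, where the plus-strand sequence shows the shared bases.
Col4a1 and Col4a2 start: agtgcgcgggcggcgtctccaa
In the mm9 annotation of the deposited tables, from which the levels come, Col4a1 ends at base 11312826 and Col4a2 begins at base 11312829, so these 2 transcripts do not overlap. Col4a1 was at 200 FPKM and Col4a2 at 192 FPKM in MEF. In SSC.1 to SSC.4, Col4a1 was at 61.0, 1.33, 151 and 5.70 FPKM, and in MASC.1 to MASC.6 at 73.1, 82.4, 72.7, 34.4, 11.1 and 14.2 FPKM. ESC.1 and ESC.2 had 27.3 and 9.10 FPKM, and iPS.1 and iPS.2 had 13.6 and 72.6 FPKM. Col4a1 was above its SSC.1 level in MASC.2, MASC.3 and iPS.2, where the median fibroblast marker was at 3.32%, 1.22% and 0.459% of MEF. It was also above that level in SSC.3 and MASC.1, where the median marker was at 10.9% and 22.0%. Over the 14 lines its rho with the marker percent was 0.53, and the part of feeder cells in its level was not tested. Col4a2 moved with Col4a1, from 0.936 FPKM in SSC.2 to 123 FPKM in SSC.3. The ratio of Col4a1 to Col4a2 kept between 1.14 and 1.86 in all 14 lines (Spearman's rho 0.98).

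The laminin chain Lama1 of the earliest embryonic basement membranes was at 17.1, 36.0, 30.0, 19.5, 5.95 and 2.97 FPKM in MASC.1 to MASC.6. It was at 1.88 and 8.47 FPKM in ESC, at 13.4 FPKM in iPS.1 with nearly the same level in iPS.2, and at no more than 1.74 FPKM in SSC, so that ESC.1 was close to the highest SSC line. Among MASC, the endoderm transcription factors Gata4 and Gata6 were highest in MASC.2 and MASC.3, with Gata4 at 10.7 FPKM and Gata6 at 8.91 FPKM in MASC.2 and 7.06 and 4.54 FPKM in MASC.3. Among the 6 MASC lines, Spearman's rho with Col4a1 was 0.94 for Gata6, 0.83 for Gata4 and 0.71 for Sox7, and lower for the other endoderm factors Sox17 (0.54) and Foxa2 (0.37), with 0.77 for Lama1 and for Dab2. Over all 14 lines it was 0.56 for Gata6, 0.39 for Sox7, 0.38 for Sox17, 0.03 for Gata4 and -0.13 for Foxa2. Gata4 was also at 4.94 and 5.95 FPKM in SSC.2 and SSC.4, the 2 SSC lines with the lowest Col4a1. The 6 primitive endoderm markers summed to between 5.46 and 33.4 FPKM in MASC and 47.0 FPKM in MEF, where Dab2 made up 45.2 FPKM, and their part in the Col4a1 level was not tested.

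**Figure D3:**
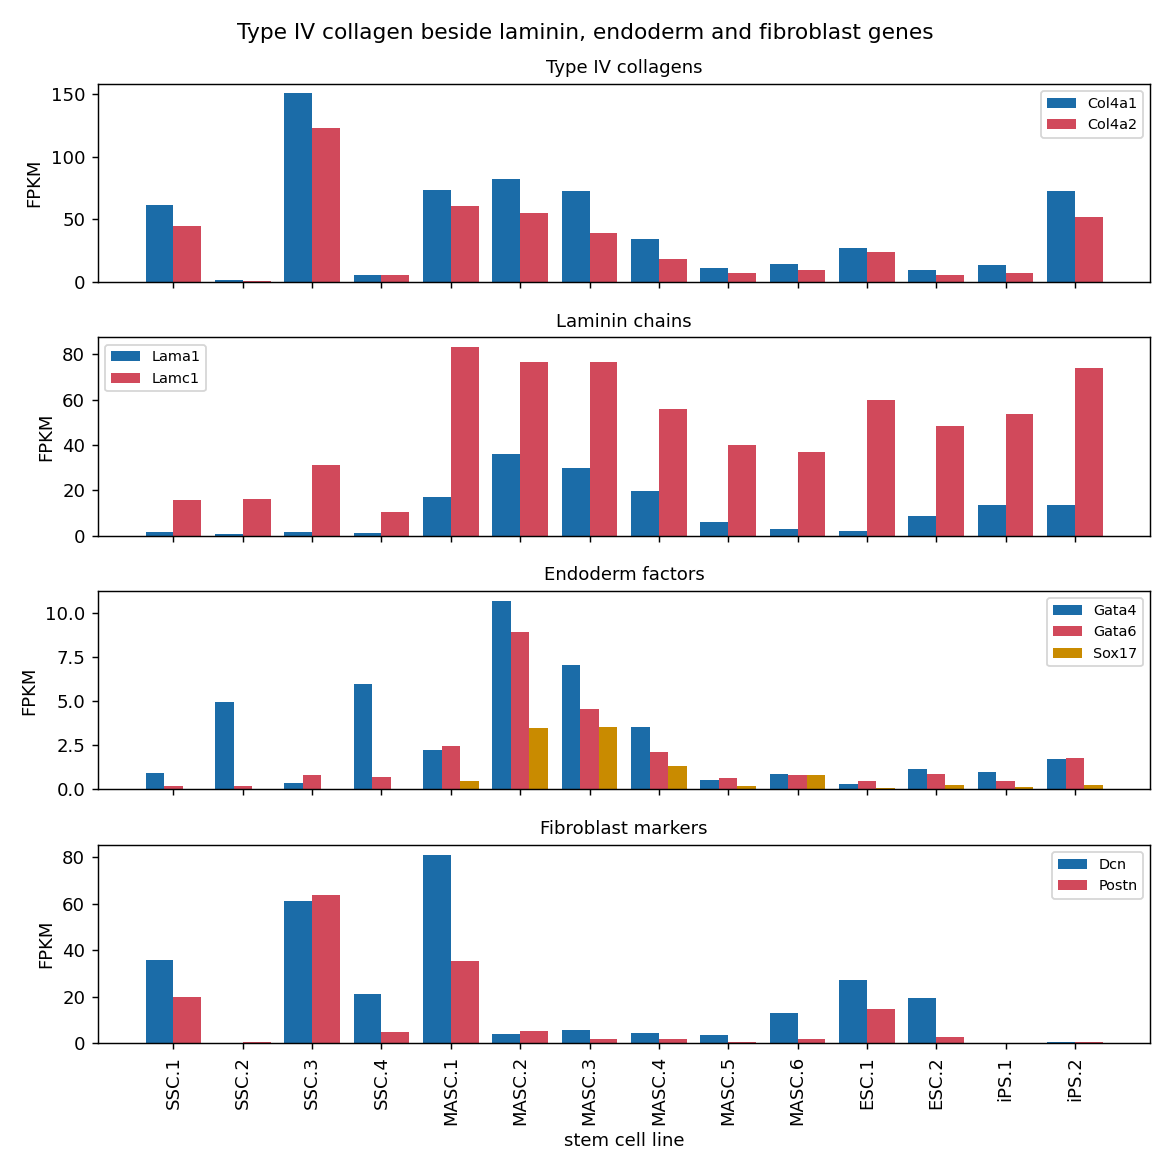
FPKM of 2 type IV collagen chains, 2 laminin chains, 3 endoderm factors and 2 fibroblast markers in the 14 SSC, MASC, ESC and iPS lines, as bars from 0. Col4a1 and Col4a2 are high both in lines with high Dcn and Postn (SSC.1, SSC.3, MASC.1) and in lines with low Dcn and Postn (MASC.2, MASC.3, iPS.2).

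The other type IV chains were far lower. Col4a5 was at 17.9 FPKM in MEF and at most 2.43 FPKM (iPS.2) in a stem cell line, and its neighbour Col4a6 was at 1.00 FPKM in MEF and at most 0.438 FPKM, again in iPS.2. Col4a3 and Col4a4, the chains of the mature kidney glomerulus, were at no more than 0.0623 and 0.0410 FPKM in any stem cell line, levels that rest on few reads.

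Among the 8 collagens above MEF in stem cell lines, Col18a1 was the most abundant. It encodes type XVIII collagen, whose C-terminal part is endostatin, and it lies at chr10:76514924-76629275 on mm9. Col18a1 was at 61.5, 42.4, 76.6 and 39.9 FPKM in SSC.1 to SSC.4, from 62.0 over a median of 83.3 to 202 FPKM in MASC, at 128 and 71.9 FPKM in ESC and at 74.7 and 95.1 FPKM in iPS, against 20.9 FPKM in MEF. All 14 lines were above MEF, which also held for Col13a1, Col22a1, Col9a2 and Col9a3, and MASC.1 stood above every other line. In 9 of the 14 lines no other collagen was as high. Col18a1 alone made up between 4.98% (SSC.3) and 64.2% (iPS.1) of the summed collagen FPKM of a line, against 0.301% in MEF. The sum leaves out Col1a1, so each share is an upper limit. Col1a1 was at 496 FPKM in SSC.3 and 1.39 FPKM in iPS.1, and it had no estimate in MEF. The Col18a1 level was carried by the transcript NM_009929, which starts at the upstream end of the locus. The second transcript NM_001109991 was at no more than 2.38 FPKM in any sample. Col15a1, the other multiplexin, had another pattern, with 23.9 FPKM in SSC.3, 6.03 FPKM in MASC.1, 3.66 FPKM in SSC.1 and 2.39 FPKM in ESC.1 and at most 0.453 FPKM in the other lines, and its rho with the fibroblast marker percent was 0.96.

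Type II and type IX collagens are cartilage collagens. Col2a1 was at 4.22, 2.28, 0.386 and 5.60 FPKM in SSC.1 to SSC.4 and at 8.07 and 8.12 FPKM in MASC.5 and MASC.6, the 2 Gt(ROSA26)Sor-lacZ lines, with 1.11 to 2.23 FPKM in the other MASC lines. Both ESC lines (1.37 and 0.228 FPKM) and iPS lines (0.904 and 1.38 FPKM) lay below MASC.2, HSC.2 was at 5.75 FPKM, and MEF was at 0.541 FPKM. A second Col2a1 transcript of similar structure (NM_001113515) had up to 5.29 FPKM in a stem cell line (SSC.1), 15.9 FPKM in HSC.2 and 0.991 FPKM in MEF, so the division between the 2 transcripts is an estimate. Summed over both transcripts, Col2a1 was at 1.53 FPKM in MEF, above iPS.1 (1.41 FPKM) and ESC.2 (0.710 FPKM). The sums were 1.98 to 9.51 FPKM in SSC and 1.77 (MASC.3) to 11.9 FPKM (MASC.6) in MASC, all above MEF. Of the 3 chains that form type IX collagen, Col9a2 and Col9a3 were expressed at 0.264 to 6.17 FPKM in the 14 lines, while Col9a1 was at no more than 0.0694 FPKM. The chains differed by cell type in opposite ways. Col9a3 was at 2.57, 2.81, 2.77 and 2.65 FPKM in SSC and at 0.748 to 1.64 FPKM in MASC, and Col9a2 was at 0.550, 0.264, 0.347 and 0.437 FPKM in SSC, 0.813 to 2.21 FPKM in MASC, 3.67 and 1.17 FPKM in ESC and 6.17 and 4.64 FPKM in iPS. No line of SSC overlapped with MASC in either chain, and the ratio of Col9a3 to Col9a2 was 4.67 to 10.7 in SSC and 0.222 to 1.32 in the other 10 lines.

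Of the transmembrane collagens, Col13a1 and Col17a1 were above MEF and had their highest means in SSC, and the low Col25a1 was highest in SSC as well. Col13a1, a collagen of cell adhesion sites, was at 9.22, 13.6, 5.81 and 2.47 FPKM in SSC.1 to SSC.4, from 0.117 over a median of 0.228 to 1.33 FPKM in MASC, at 0.542 and 0.247 FPKM in ESC, 1.03 and 1.30 FPKM in iPS, 0.0340 and 0.308 FPKM in HSC and 0.0223 FPKM in MEF. Every SSC line was above every other sample. Col17a1, a hemidesmosome collagen of basal epithelial cells, was at 0.569, 2.36, 4.19 and 3.66 FPKM in SSC, at no more than 0.318 FPKM in MASC and at 0.751 and 0.714 FPKM in iPS, so that SSC.1 lay below both iPS lines. A second Col17a1 transcript (NM_007732) held 2.93 FPKM in SSC.3 and 0.438 FPKM in MASC.5, where the first was near 0, so the division is again an estimate. Summed over both transcripts, Col17a1 was at 0.572 to 7.12 FPKM in SSC and at most 0.514 FPKM in MASC. Col22a1, a FACIT collagen of tissue junctions, was at 4.86, 2.99, 5.41 and 0.906 FPKM in SSC and 0.115 to 0.479 FPKM in MASC. Col26a1 was at 0.878, 3.73, 1.14 and 0.897 FPKM in SSC and 0.288 to 1.24 FPKM in MASC, and these groups overlapped. Without SSC.2, Col26a1 was sorted as low. The position of SSC.2 in this group differed from its position in the MEF group, as it had the highest Col13a1 and Col26a1 of all lines and the lowest fibroblast marker percent of the SSC lines.

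**Figure D4:**
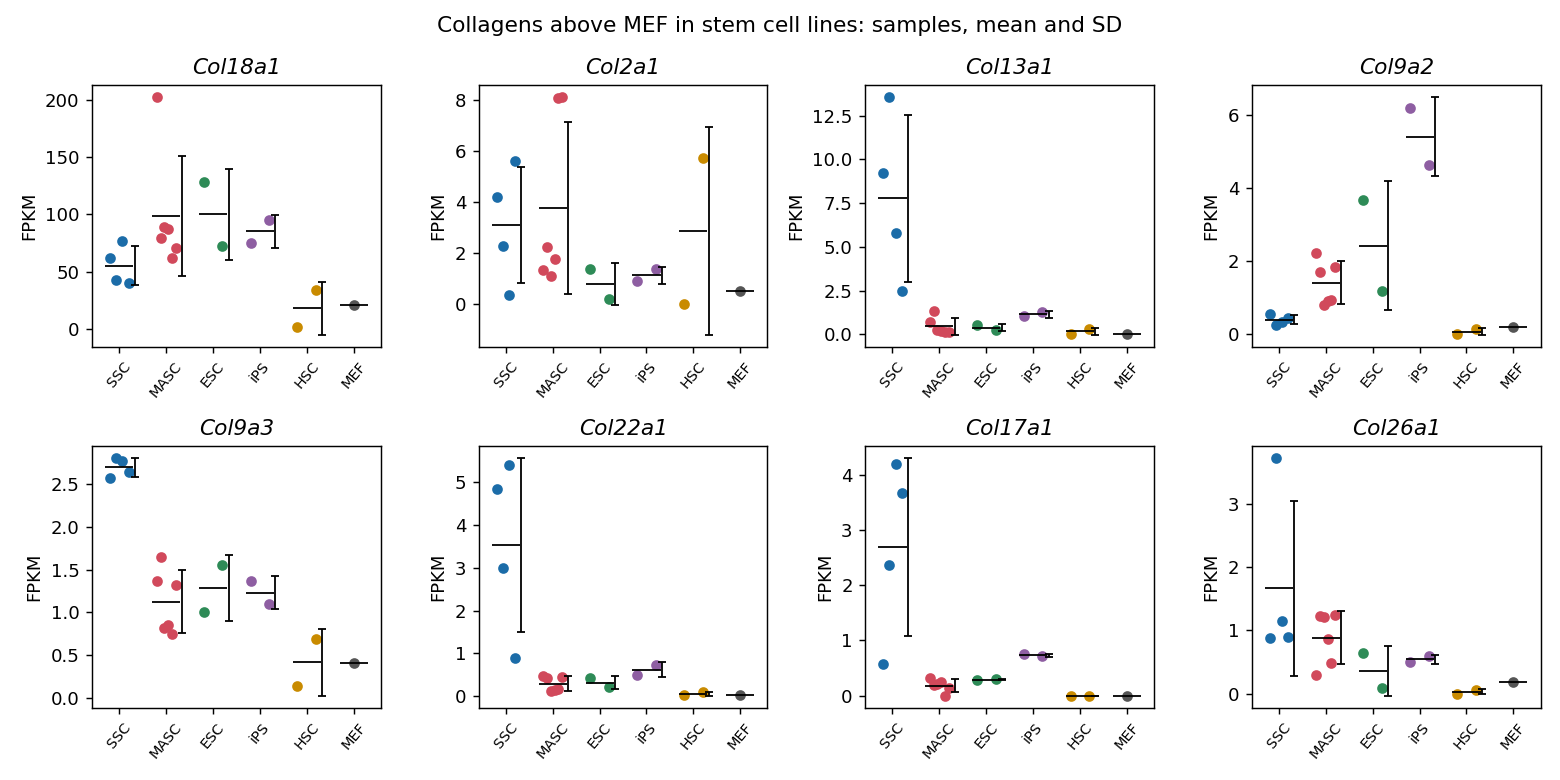
FPKM of the 8 collagens above MEF in stem cell lines, 1 point per sample, with the mean (line) and SD (bar, for groups of at least 2) of each cell type; each panel has its own linear axis. Col18a1, Col13a1, Col22a1, Col9a2 and Col9a3 are above MEF in all 14 lines, Col13a1, Col22a1 and Col17a1 have their highest means in SSC, and Col9a2 is highest in iPS lines.

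The first comparison asked which collagens differ between SSC and the MASC that arise from them. It was fitted with limma on log2(FPKM + 1) over the 12 SSC, MASC and ESC lines, and a transcript was called where the log2 difference was at least 1 and the p-value, adjusted by Benjamini-Hochberg over all 32661 transcripts, was under 0.05. In MASC, 0 of the 43 collagens were called higher and 4 lower, Col13a1, Col8a2, Col22a1 and Col17a1, against 6.04% of all transcripts called higher and 9.6% called lower. The share of collagens called lower was thus near that of all transcripts. Unadjusted p-values under 0.05 were found for 14 of the 43 collagens, against 13022 of all 32661 transcripts. The median log2 difference was -0.29 over the 43 and 0.00 over all transcripts to 2 decimals (-0.00480).

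Col13a1 fell by 2.45 (SE 0.381, limma adjusted p = 0.000895), from 7.77 ± 4.75 FPKM in SSC (SD, n = 4) to 0.462 ± 0.483 FPKM in MASC (SD, n = 6). Col22a1 fell by 1.67 on the log2 scale (SE 0.303, limma adjusted p = 0.00226) and Col17a1 by 1.51 (SE 0.289, limma adjusted p = 0.00308). Col8a2, a network collagen of the cornea and vessel wall, fell by 1.63 (SE 0.164, limma adjusted p = 6.22e-05). It was at 2.23, 4.69, 2.58 and 2.25 FPKM in SSC.1 to SSC.4 and between 0.0754 and 0.452 FPKM in MASC, so that all SSC lines lay above all MASC lines, although the collagen was highest in MEF at 10.1 FPKM. Its level in SSC did not follow the fibroblast marker percent, and the highest value was in SSC.2, where Col8a1, which can form a protein with it, was at 0.0762 FPKM. All 4 collagens remained called without the lines in which the median fibroblast marker was over 5% of MEF (SSC.3, MASC.1 and ESC.1 in this fit), with log2 differences from -2.57 (Col13a1) to -1.34 (Col17a1). Col5a1 was then called lower as well, where 9.35% of all transcripts were called lower.

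A further 6 collagens had adjusted p-values under the threshold but log2 differences under 1 in size, among them both type IX chains. Col9a3 was lower in MASC by 0.817 (SE 0.128, limma adjusted p = 0.000936) and Col9a2 higher by 0.748 (SE 0.236, limma adjusted p = 0.0367). The others were Col6a5 (0.40), Col11a2 (-0.47), Col23a1 (-0.62) and Col25a1 (-0.37). With a pseudocount of 0.1 all 6 were called, which made 10 collagens, 2 higher and 8 lower, where the share of all transcripts called also rose, to 8.74% higher and 14.5% lower. The abundant chains had large errors in this comparison. Col1a2 differed by -0.59 (SE 1.56, limma adjusted p = 0.876), Col4a1 by 0.95 (SE 1.18, limma adjusted p = 0.628) and Col18a1 by 0.75 (SE 0.343, limma adjusted p = 0.133). With the strain as a block, Col18a1 and Col7a1 were called higher in MASC, as were 5.89% of all transcripts.

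Against SSC, ESC had 1 collagen called higher and 4 lower, against 4.96% and 8.75% of all transcripts. The 4 lower collagens were the ones also called lower in MASC, and both comparisons share the SSC lines. Col13a1 fell by 2.47 (SE 0.511, limma adjusted p = 0.00716), Col8a2 by 1.78 (SE 0.219, limma adjusted p = 0.000429), Col22a1 by 1.65 (SE 0.407, limma adjusted p = 0.0173) and Col17a1 by 1.39 (SE 0.388, limma adjusted p = 0.0305). Col9a2 rose by 1.19 (SE 0.316, limma adjusted p = 0.0241), which corresponds to 3.67 and 1.17 FPKM in ESC against 0.399 ± 0.123 FPKM in SSC (SD, n = 4). Several of these calls were lost under other settings. Col17a1 was lost under 11 of 16 alternatives, among them leaving out SSC.2, SSC.3 or SSC.4, quantile normalization, summed transcripts and either block, Col22a1 under 5, Col9a2 under 4, Col13a1 under 2 and Col8a2 under 1. Some of these alternatives leave 1 ESC line, so their counts of calls are not given. Without ESC.1 the Col9a2 difference was 0.64. With a pseudocount of 0.1, 2 collagens were called higher and 6 lower, against 6.65% and 12.2% of all transcripts. The median over the 43 collagens was -0.02, against -0.01 over all transcripts.

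Between MASC and ESC, 0 of the 43 collagens were called by limma, against 0.00306% of transcripts called higher and 0.0153% called lower, which are 1 and 5 transcripts. Unadjusted p-values under 0.05 were found for 2 collagens, against 954 of all 32661 transcripts. The differences ranged from -1.09 (Col1a2, SE 1.97) to 1.20 (Col2a1, SE 0.750), and both were smaller than 2 of their standard errors. Errors of this size leave differences of several-fold undetectable for Col1a2, Col3a1 and Col4a1.

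**Figure D5:**
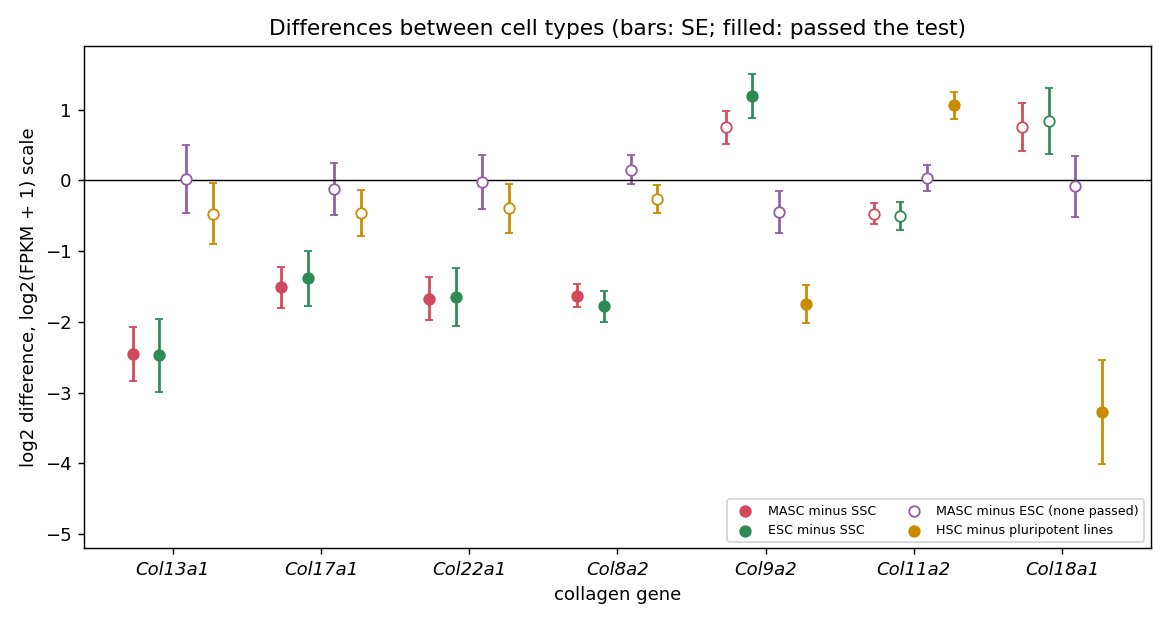
Log2 differences (log2(FPKM + 1) scale) of the 7 collagens called in at least 1 comparison, with bars of 1 SE from limma; filled points passed the call rule. Col13a1, Col17a1, Col22a1 and Col8a2 lie below 0 in both MASC minus SSC and ESC minus SSC, and no point passed in MASC minus ESC.

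The HSC cultures were compared with the mean of the MASC, ESC and iPS groups, in a fit over 16 samples. HSC had 1 collagen called higher and 2 lower, against 10.3% and 11.2% of all transcripts. Col18a1 was at 1.51 FPKM in HSC.1 and 34.3 FPKM in HSC.2, against 62.0 to 202 FPKM in the 10 pluripotent lines. Its log2 difference was -3.28 (SE 0.738, limma adjusted p = 0.00445), which was -5.18 with HSC.1 alone (limma adjusted p = 3.85e-05) and -1.37 with HSC.2 alone (limma adjusted p = 0.0870). Col9a2 was at 0.0120 and 0.141 FPKM in HSC and fell by 1.75 (SE 0.271, limma adjusted p = 0.000326), or by 1.84 with HSC.1 alone (limma adjusted p = 0.00407) and 1.67 with HSC.2 alone (limma adjusted p = 0.00658). Col11a2 was at 1.24 and 2.42 FPKM in HSC and 0.114 to 1.08 FPKM in the pluripotent lines, and rose by 1.06 (SE 0.192, limma adjusted p = 0.00102), or by 0.75 with HSC.1 alone, under the size threshold. Both HSC values were above all pluripotent lines. The 2 C57Bl/6J cultures and the pluripotent lines shared no strain, and with the strain as a block, which SSC.3 alone ties to HSC, Col11a2 and Col18a1 were not called. With a pseudocount of 0.1, 1 collagen was called higher and 8 lower, against 13% and 16.5% of all transcripts.

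The cultures had different collagens. In HSC.1 only 3 of the 43 collagens reached 1 FPKM, Col15a1 at 7.91, Col18a1 at 1.51 and Col11a2 at 1.24 FPKM. The 4 collagens in between made up 57.9% of the summed FPKM of the 43, which leaves out Col1a1 (1.46 FPKM), and nearly all of that share was Col15a1. In HSC.2, 21 of the 43 collagens reached 1 FPKM, led by Col1a2 (143 FPKM), Col6a1 (86.8 FPKM) and Col6a2 (69.6 FPKM), and the median fibroblast marker was at 10.5% of MEF against 0.0186% in HSC.1. Col15a1 was also present in HSC.2, at 5.39 FPKM, although it was 0.827 FPKM in MEF. All 6 HSC markers were called higher in HSC, against 10.3% of all transcripts. Of the 6 endothelial markers Vwf and Tie1 were called higher and 0 lower, against 10.3% and 11.2% of all transcripts. The direction was not shared by all markers. With HSC.1 alone Vwf was higher, Esam was lower and the Tie1 log2 difference was -0.07. With HSC.2 alone Kdr, Tie1 and Vwf were higher. The 6 markers summed to 26.7 to 56.8 FPKM in HSC against at most 8.53 FPKM in MASC, and their part in the Col15a1 level was not tested.

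Enzymes that modify and assemble collagen were read from a list of 29 genes, of which Mia3 was listed at 0 in all samples. Between MASC and SSC, 1 was called higher and 3 lower, which is 3.45% and 10.3% of the list against 6.04% and 9.6% of all transcripts, so the share called lower was near that of all transcripts. Lower in MASC were P4ha1, a prolyl 4-hydroxylase subunit (-1.69, SE 0.487, limma adjusted p = 0.0249), and the lysyl hydroxylases Plod1 (-1.40, SE 0.231, limma adjusted p = 0.00131) and Plod2 (-1.06, SE 0.228, limma adjusted p = 0.00592), while the procollagen C-proteinase enhancer Pcolce2 was higher (1.65, SE 0.363, limma adjusted p = 0.00661). Plod2, read from the transcript NM_011961, was at 17.3, 22.5, 25.1 and 23.9 FPKM in SSC and at 0.776 FPKM in MEF. This transcript was thus higher in SSC than in the MEF sample, and levels were not summed over transcripts for this list. The collagen chaperone Serpinh1, at 1161 FPKM in MEF, was at 3.41 FPKM in SSC.2 and 227 FPKM in MASC.2. In ESC against SSC, 1 of the 29 was called higher and 2 lower (Pcolce2, Plod1 and Plod2), against 4.96% and 8.75% of all transcripts. Between MASC and ESC 0 of the 29 were called by limma (2 at an unadjusted p under 0.05, against 954 of all 32661 transcripts). In HSC 4 were called higher and 3 lower, against 10.3% and 11.2% of all transcripts. Each culture alone leaves 1 sample in a group, so only effect sizes are given for it here. Plod2 was at 0.260 and 0.345 FPKM in HSC and fell by 3.38 (SE 0.255, limma adjusted p = 9.65e-07), with -3.43 in HSC.1 alone and -3.34 in HSC.2 alone.

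Of 10 collagen receptors, 0 were called higher and 1 lower in MASC against SSC, against 6.04% and 9.6% of all transcripts. The share called lower was thus near that of all transcripts. The receptor called was the endocytic receptor Mrc2, which fell by 2.37 (SE 0.720, limma adjusted p = 0.0318) with 13.3 to 34.4 FPKM in the SSC lines. Its MASC.1 value of 18.9 FPKM lay within the SSC range. Ddr1, a receptor tyrosine kinase for collagen, was at 79.7 FPKM in SSC.2 and at 18.3, 7.79 and 27.3 FPKM in the other SSC lines. In HSC, 2 of the 10 were called higher and 0 lower, against 10.3% and 11.2% of all transcripts. They were the blood cell receptors Lair1 (2.33, SE 0.146, limma adjusted p = 1.77e-07) and Gp6 (1.70, SE 0.418, limma adjusted p = 0.00751), and Gp6 was at 0.354 FPKM in HSC.1 and 6.85 FPKM in HSC.2. The Lair1 difference was 2.77 with HSC.1 alone and 1.89 with HSC.2 alone, whereas Gp6, at 0.43 with HSC.1 alone and 2.97 with HSC.2 alone, passed the size threshold only with HSC.2.

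Basement membrane partners of collagens IV and XVIII formed a list of 16 genes. In MASC against SSC, 5 (31.25%) were called higher and 0 lower, against 6.04% and 9.6% of all transcripts. Among the 5 were Agrn (1.94, SE 0.165), Lama3 (1.49, SE 0.192), Lamc1 (1.72, SE 0.329) and Lama1 (2.72, SE 0.655), with limma adjusted p-values from 2.27e-05 to 0.0107 for these genes. Lamc1, the laminin gamma 1 chain, was at 15.7, 16.3, 31.4 and 10.4 FPKM in SSC and 36.8 to 83.3 FPKM in MASC, without overlap. In the same comparison neither of the abundant type IV chains was called, and the median log2 difference over the 16 genes was 0.68. In ESC, 3 of the 16 were called higher than in SSC (Lama3, Agrn and Lamc1) and 0 lower, against 4.96% and 8.75% of all transcripts. In HSC, 10 of the 16 were called lower than in pluripotent lines and 0 higher, against 11.2% and 10.3% of all transcripts. Among the 10 were Nid2 (-4.93, SE 0.380, limma adjusted p = 1.18e-06) and Lama1 (-3.35, SE 0.730, limma adjusted p = 0.00363). Nid2 differed by -5.17 and -4.68 and Lama1 by -3.34 and -3.35 with HSC.1 and HSC.2 alone, fits that leave 1 sample in a group.

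The 4 collagens in between had levels on both sides. Col5a3, the third type V chain, was at 21.3 FPKM in MEF and above it in SSC.3 (29.5 FPKM) and MASC.1 (45.1 FPKM), the 2 lines with the most fibroblast markers, and its rho with the marker percent was 0.95. Col23a1, a transmembrane collagen, was at 0.861, 0.470, 0.671 and 1.47 FPKM in SSC and 0.389 FPKM in MEF, and Col28a1 was at 2.26 FPKM in SSC.3 and 1.02 FPKM in MEF. Of the 9 low collagens, Col6a5 was at 0.329 to 0.501 FPKM in MASC and 0.695 and 0.576 FPKM in ESC but at no more than 0.140 FPKM in SSC, and Col25a1 was at 0.161 to 0.422 FPKM in SSC, at most 0.0496 FPKM in MASC and at most 0.109 FPKM (MEF) in any other sample. Its 3 transcripts summed to 0.461 to 1.06 FPKM in SSC, 0.431 FPKM in MEF and at most 0.0676 FPKM in MASC. Col20a1 reached 1.36 FPKM in SSC.2. At such levels a value rests on few reads, and none of the 9 was called in the 4 comparisons. Between MASC and SSC, 4 of them had an unadjusted p under 0.05, against 13022 of all 32661 transcripts.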

How the data were processed

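RNA-seq of 17 mouse samples was used. The authors deposited, for each sample, a Cufflinks table of 33262 transcripts on mm9 with FPKM values, their bounds and a coverage signal, made from TruSeq reads aligned with TopHat2 (version 2.0.11 per the submitters' processing notes). Per the study's methods, duplicate and multiply mapped reads were excluded and upper-quartile and GC normalization was used. The version of Cufflinks and the strandedness are not given in the sources used here. No counts were used, and only FPKM and coverage were read. Rows with RefSeq NM or NR names were kept (32661 transcripts). Col1a1 was left out of the collagens because its MEF value had no estimate.

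FPKM values were transformed as log2(FPKM + 1) and fitted with limma 3.58.1 (R 4.3.3) with empirical Bayes moderation. The 12 SSC, MASC and ESC lines entered the first 3 comparisons, and 16 samples the comparison of HSC. P-values were two-sided and adjusted by Benjamini-Hochberg over all transcripts, and a call needed an adjusted p under 0.05 and a log2 difference of at least 1. Fold changes of low genes are understated on this scale. On simulated data for MASC minus SSC over 32661 transcripts, 68 of 100 changes of log2 1.5 and 90 of 100 of log2 3 were recovered, with 3 false calls. The changed transcripts were drawn from the 20119 with at least 1 FPKM in at least 2 samples, and the noise was normal and independent. These rates therefore do not carry over to low collagens or to groups with 1 line far from the others. The collagens and lists were chosen with earlier results of these data known. Named by rule were up to 8 collagens with the highest FPKM of each group, those called, and chains of the same protein, and other collagens were named after their values were seen. Alternatives were another pseudocount, a filter on low values, quantile normalization, another call rule, another variance model, summed transcripts, blocks for replicate number and strain, all samples in 1 fit, and leaving out each line. The values of 1 gene of the basement membrane list are not reported here.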

Additional observations from a re-analysis of the deposited data

Results flagged for a closer look

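Of 44 groups of SSC or MASC values, for 22 collagens, 5 held 1 line far from the others. For independent groups chance alone gives about 1 in 20. These groups share the same lines and many of the collagens move together, so the 5 cannot be set against that rate. In 4 of the 5 the line was MASC.1, the MASC line with the highest fibroblast marker percent. Col5a2 was at 58.1 FPKM in MASC.1 against 2.51 to 8.55 FPKM in the other MASC lines. Col12a1 was at 10.4 FPKM there against 0.628 to 1.78 FPKM, and Col8a1 was at 11.4 FPKM against 0.368 to 1.48 FPKM. Col18a1 was at 202 FPKM in MASC.1 against 62.0 to 89.1 FPKM, although the MEF sample held only 20.9 FPKM of Col18a1. In SSC, Col26a1 was at 3.73 FPKM in SSC.2 against 0.878 to 1.14 FPKM in the other lines, and SSC.2 had the lowest fibroblast marker percent of the SSC lines.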

How the results depend on the processing

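Of 226 values of the called collagens under alternatives, 192 kept their call, 34 lost it and 0 reversed. With a 2-fold margin, 14 rather than 22 collagens were highest in MEF, and leaving out 1 line gave 22 to 23 of these and 8 to 9 above MEF. Without SSC.2, Col26a1 moved from the collagens above MEF to the low ones and Col23a1 entered. With a minimum of 2 FPKM, Col26a1, Col11a2 and Col4a6 left their groups and were low. With a minimum of 0.5 FPKM, Col20a1, Col23a1 and Col6a5 joined those above MEF. With a pseudocount of 0.1 the calls rose to 10 (MASC minus SSC), 8 (ESC minus SSC) and 9 (HSC minus pluripotent lines), while calls over all transcripts rose to 8.74% higher and 14.5% lower, 6.65% and 12.2%, and 13% and 16.5%. With a raw p and a log2 difference of at least 2 the first and the second were 1 each, against 1.81% higher and 2.21% lower and 1.97% and 2.54% of all transcripts. The replicate block left 2 calls for ESC minus SSC and 3 for MASC minus SSC. Over all transcripts it gave 2.94% higher and 5.03% lower for the first, and 4.42% and 7.31% for the second. Col17a1 then had a limma adjusted p of 0.0569 in MASC minus SSC. Same-numbered lines had a mean correlation of deviations of -0.031 over 4 pairs (from -0.225 to 0.185). Lines of different number had 0.0048 over 20 pairs (from -0.322 to 0.339). With only 4 pairs, these values cannot decide whether same-numbered lines share an origin. SSC.3 and MASC.3 carried different backgrounds. Leaving out 1 line gave 4 to 6 calls for MASC minus SSC. Over all transcripts these fits called 5.54% to 6.16% higher and 9.04% to 9.9% lower. For ESC minus SSC and for HSC some of these fits leave 1 sample in a group, and their counts are not given. Leaving out lines with fibroblast markers over 5% of MEF was an alternative added after seeing the data, and it left 1 ESC line. MASC minus ESC gave 0 calls under every alternative run. The cause of these changes was not tested. Transcripts with at least 1 FPKM had a median log2 difference of -0.12 (MASC minus SSC) and -0.15 (ESC minus SSC), which quantile normalization moved to 0.00 and -0.01. Depth limits low collagens, which rest on few reads at 1.26 to 3.23 reads per base for 1 FPKM, and 1 MEF sample gives no spread for MEF.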

Other observations

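Col1a1, the main chain of type I collagen, was left out of all counts because Cufflinks gave the MEF sample a value of 0 with a status of too much data. Its values elsewhere were 165, 4.47, 496 and 39.5 FPKM in SSC.1 to SSC.4 and 569, 118, 12.6, 9.48, 8.85 and 21.3 FPKM in MASC.1 to MASC.6. ESC.1 and ESC.2 had 226 and 18.9 FPKM, iPS.1 and iPS.2 had 1.39 and 37.6 FPKM, and HSC.1 and HSC.2 had 1.46 and 168 FPKM. In all lines but iPS.1 the level of Col1a1 was above that of Col1a2, its partner chain.

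Mia3, which helps load collagen into transport carriers, was listed at 0 in all 17 samples, on the unplaced sequence chr1_random. Since an exact 0 in every sample can be a failed estimate, it says nothing on whether the gene was expressed.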
